A study of Homo sapiens with 12 samples.

Results

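The 9 genes described here encode the class I histone deacetylases HDAC1, HDAC2, HDAC3 and HDAC8 and 5 subunits of the corepressor complexes that carry HDAC1, HDAC2 and HDAC3: NCOR1, RCOR1, SIN3A, MTA1 and MTA2. They were taken by gene symbol and not by a threshold on their values, although earlier results of these data were known when the list was made, and all 9 were among the 25146 genes of the table. Jurkat and Molt-4, 2 human lines from T-cell acute lymphoblastic leukaemia, gave RNA for sequencing from cells grown without chidamide and from cells given 2 µM of it, with 3 libraries in each of 4 groups. Chidamide is a benzamide drug that blocks HDAC1, HDAC2 and HDAC3 of class I and, outside it, HDAC10. Treatment lasted 48 h by the protocol, while the treated libraries of each line are labelled 48, 49 and 50 h in the order of their replicate numbers, so time and replicate number cannot be told apart. The sample titles carry the letters J and M, read here as the initials of the lines. Both lines were grown in RPMI medium with serum, and no vehicle is named for the untreated cells. Whether the 3 libraries of a group are separate cultures is not stated, and each p-value therefore reflects the spread among these libraries alone, which may be technical.

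Class I deacetylases remove acetyl groups from histones and other nuclear proteins and act mostly inside large complexes. HDAC1 and HDAC2 are close paralogues that form the catalytic core of the SIN3, NuRD and CoREST complexes, HDAC3 works in the NCOR complex, which is needed for its activity, and HDAC8 acts on its own. Scaffold subunits hold the enzyme and bring it to DNA-bound repressors: NCOR1 for HDAC3, and RCOR1, SIN3A, MTA1 and MTA2 for HDAC1 and HDAC2. In T cells these complexes silence genes outside the lineage and hold back NOTCH targets when the receptor is off, since the DNA-binding factor RBPJ recruits corepressors.

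Values were FPKM, fragments per length of the gene and size of the library. Read counts were not used, and depth is unknown. Between 11643 and 13228 genes per library reached an FPKM of 1. Replicate 3 of untreated Jurkat was less like its 2 partners: the SD of the log2 ratios over genes was 0.332 and 0.337, where all remaining pairs of a group gave 0.233 to 0.269. In untreated Molt-4 replicate 3 the 7SL RNA genes held 10.1% of all FPKM, and in the other libraries 2.25% to 5.35%. CDKN1A, a gene known to respond to deacetylase inhibitors, rose from 1.29 ± 0.327 to 50.8 ± 1.08 FPKM in Jurkat and from 0.637 ± 0.0503 to 19.9 ± 2.204 FPKM in Molt-4 (limma adjusted p = 4.07e-11 and 1.56e-10). Of 15 T-lineage markers, 13 reached a mean FPKM of 1 in both untreated groups and 14 in both treated groups. Their summed FPKM lay between 2554 and 2597 in untreated Jurkat, 1575 and 1636 in treated Jurkat, 1501 and 1549 in untreated Molt-4, and 1198 and 1224 in treated Molt-4. Markers with high FPKM weigh most in these sums, and single markers moved both ways. CD3D went from 803 ± 15.7 to 506 ± 32.1 FPKM in Jurkat and from 424 ± 40.5 to 331 ± 13.5 FPKM in Molt-4. CD28 went from 33.2 ± 5.93 to 68.4 ± 1.86 FPKM in Jurkat and from 0.667 ± 0.180 to 14.9 ± 1.77 FPKM in Molt-4. The 3 B-cell markers and the 4 NK-cell markers summed to at most 4.97 FPKM in any library, with MS4A1 listed at 0 in every library of 3 of the groups. The 5 myeloid markers summed to at most 3.25 FPKM, except in treated Molt-4 with 68.4 to 68.9. Most of this was LYZ, at 62.9 ± 0.906 FPKM, with ITGAM at 4.93 ± 0.965 FPKM. There CD14, CSF1R and MPO had means under 1 FPKM. The 6 erythroid and megakaryocyte markers summed to 2.07 to 2.4 FPKM in untreated Jurkat and 7.99 to 68.8 in treated Jurkat, where HBA2 was at 3.51, 37.8 and 36.7 FPKM in replicates 1, 2 and 3. They summed to 610.2 to 624 FPKM in untreated Molt-4 and 861 to 873 in treated Molt-4, where HBA2 made up most of it. The line of a library is taken from its label alone, and whether the libraries labelled Molt-4 hold that line was not tested. The part of these differences in marker RNA in the results below was not tested. In bulk RNA fewer cells with a gene and less of its RNA per cell cannot be told apart.

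HDAC1 and HDAC2 RNA was abundant and HDAC8 and RCOR1 RNA was not. FPKM is per length, so levels are set side by side between genes here. The gene lengths used for it are not given in the sources used here, which limits this order and the shares of families below. In untreated Jurkat the order was HDAC1 (303 ± 27.6 FPKM, mean ± SD over 3 libraries), HDAC2 (212 ± 2.29), MTA1 (164 ± 5.97), MTA2 (120.1 ± 4.31), NCOR1 (84.5 ± 4.61), HDAC3 (50.4 ± 1.56), SIN3A (27.4 ± 1.001), HDAC8 (15.5 ± 1.11) and RCOR1 (15.1 ± 0.326). Libraries of neighbours in this order did not overlap except for HDAC8 and RCOR1. HDAC1 lay above 97.8% of the genes tested in that group, and RCOR1 above 51.6%. In untreated Molt-4 HDAC3 (77.7 ± 3.77 FPKM) stood above NCOR1 (63.9 ± 3.38 FPKM) and RCOR1 (12.3 ± 0.307 FPKM) above HDAC8 (10.9 ± 0.921 FPKM), and the rest of the order was as in Jurkat. With chidamide MTA2 took the place above MTA1 in both lines. In treated Molt-4 MTA2, MTA1 and HDAC3 lay within overlapping ranges, at 90.03 ± 0.943, 89.3 ± 2.95 and 87.3 ± 2.38 FPKM.

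**Figure D1:**
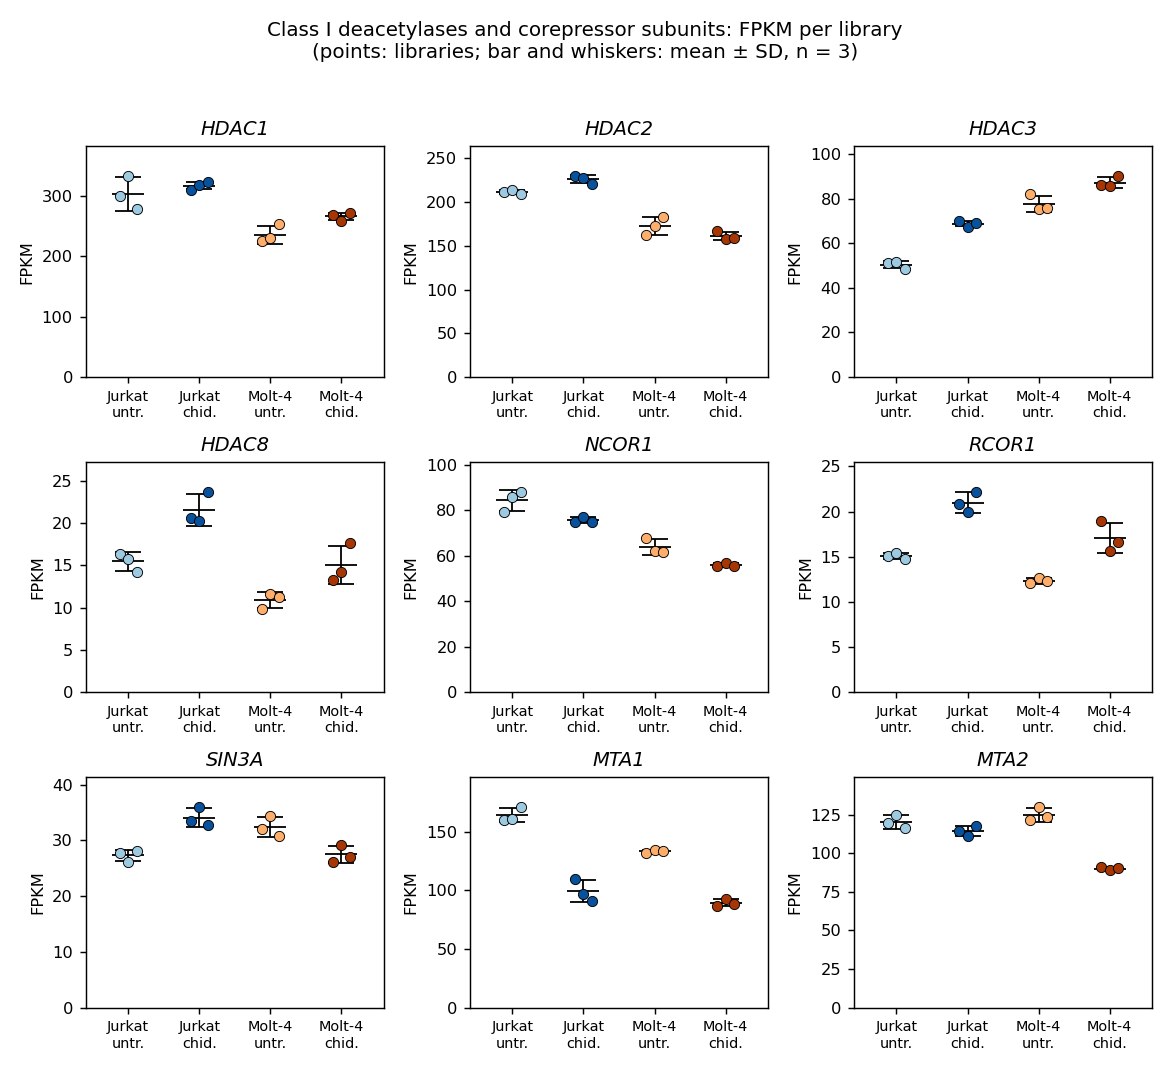
FPKM of the 9 genes in each of the 12 libraries, in 1 panel per gene with an axis that starts at 0. Points are libraries, and the bar and whiskers are the mean ± SD of 3 libraries. MTA1 was lower in both treated groups than in both untreated groups, RCOR1 and HDAC8 were higher with chidamide in both lines, and SIN3A was higher with chidamide in Jurkat and lower in Molt-4.

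The first question was how RNA of the inhibited enzymes and of their partners changed with chidamide. All 9 genes passed the filter on low values, and differences are given on the log2(FPKM + 1) scale ± SE from a limma fit of all 13840 genes tested, with Benjamini-Hochberg adjusted p-values called under 0.05. In Jurkat 4 of the 9 rose (HDAC3, HDAC8, RCOR1 and SIN3A) and 2 fell (MTA1 and NCOR1), a share to be read against 56.3% of all genes tested that were called (30.9% higher and 25.4% lower). In Molt-4 4 rose (HDAC1, HDAC3, HDAC8 and RCOR1) and 4 fell (MTA1, MTA2, NCOR1 and SIN3A), where 60% of all genes tested were called (35.4% higher and 24.6% lower). Treated and untreated libraries did not overlap for 7 of the 9 in Jurkat, against 60.7% of all genes tested, and for 8 of the 9 in Molt-4, against 67.3%. The median log2 change of the 9 was 0.093 in Jurkat and -0.097 in Molt-4, beside 0.037 and 0.076 over all genes tested. In both lines HDAC3, HDAC8 and RCOR1 rose, beside 21.7% of all genes called higher in both, and MTA1 and NCOR1 fell, beside 16.2% called lower in both. All changes of the 9 were under 2-fold in size: the largest was 1.65-fold on this scale, for MTA1 in Jurkat. With most genes called, these counts are not a result about the 9 genes as a group. The split over all genes in Molt-4, 4903 higher and 3401 lower, turned to 3540 higher and 5039 lower under quantile normalization, and that in Jurkat, 4277 higher and 3509 lower, to 3589 and 4039.

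Among the deacetylases HDAC3 and HDAC8 rose in both lines. HDAC3, the catalytic subunit of the NCOR complex, was at 51.1, 51.4 and 48.6 FPKM in untreated Jurkat replicates 1, 2 and 3 and at 69.9, 67.4 and 69.2 FPKM in the treated ones. The groups lay far apart, and the log2 change was 0.44 ± 0.050 (adjusted p = 1.19e-05). In Molt-4 HDAC3 was at 81.98, 75.2 and 75.8 FPKM untreated and 86.1, 85.8 and 90.04 FPKM treated. The groups were close but did not overlap, and the log2 change was 0.17 ± 0.050 (adjusted p = 0.012). HDAC8, which acts outside the large complexes and is not among the targets of chidamide named above, was at 16.4, 15.8 and 14.2 FPKM in untreated and 20.6, 20.3 and 23.7 FPKM in treated Jurkat (log2 change 0.45 ± 0.11, adjusted p = 0.00349). In Molt-4 it was at 9.89, 11.7 and 11.2 FPKM untreated and 13.3, 14.2 and 17.6 FPKM treated (log2 change 0.42 ± 0.11, adjusted p = 0.00501). Its groups did not overlap in either line, although the treated Molt-4 libraries were spread widely. The Molt-4 call of HDAC3 was lost under median-of-ratios scaling (adjusted p = 0.0558) and without treated Molt-4 replicate 3 (0.0541), over a range of adjusted p from 0.0013 to 0.0558 across alternatives.

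HDAC1 and HDAC2, the paired catalytic subunits of the SIN3, NuRD and CoREST complexes, changed by smaller steps. HDAC1 was at 299.9, 332 and 277 FPKM in untreated Jurkat and 310, 318 and 322 FPKM in treated Jurkat, with overlapping groups (log2 change 0.067 ± 0.065, 95% interval -0.074 to 0.21, adjusted p = 0.404). In Molt-4 HDAC1 was at 224, 229.5 and 252 FPKM untreated and 268, 259 and 271 FPKM treated, and rose by 0.18 ± 0.065 (adjusted p = 0.0332). HDAC2 was at 212, 214 and 209.8 FPKM in untreated and 229.5, 228 and 221 FPKM in treated Jurkat. All 3 treated libraries were above the untreated ones, by a step that missed the threshold (log2 change 0.093 ± 0.049, 95% interval -0.013 to 0.20, adjusted p = 0.125). In Molt-4 HDAC2 was at 163, 172 and 183 FPKM untreated and 167, 157 and 159 FPKM treated, with overlapping groups (log2 change -0.097 ± 0.049, 95% interval -0.20 to 0.0091, adjusted p = 0.104). These small steps moved across the threshold with the scaling: the HDAC1 call in Molt-4 was lost under median-of-ratios scaling (adjusted p = 0.0862), without treated replicate 1 (0.0808) or 3 (0.094) and without untreated replicate 1 (0.115) or 2 (0.0967), over 0.000115 to 0.115 across alternatives, while HDAC2 in Molt-4 was called lower under median-of-ratios scaling (0.0268) and without untreated Molt-4 replicate 1 (0.0293), over 0.0268 to 0.451. In Jurkat both were called higher under quantile normalization (0.000434 for HDAC1 and 0.0016 for HDAC2) and when totals were equalised without 7SL RNA (0.0298 and 0.00453), over 0.000434 to 0.958 for HDAC1 and 0.0016 to 0.262 for HDAC2.

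HDAC10, the target of chidamide outside class I, was at 49.8 ± 7.903 FPKM in untreated and 45.02 ± 1.87 FPKM in treated Jurkat (adjusted p = 0.373), and fell from 34.4 ± 4.25 to 26.4 ± 2.87 FPKM in Molt-4 (log2 change -0.37 ± 0.12, adjusted p = 0.018).

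The scaffold genes moved in different directions. RCOR1, the CoREST scaffold that joins HDAC1 or HDAC2 to the lysine demethylase KDM1A, rose in both lines. It was at 15.1, 15.4 and 14.8 FPKM in untreated and 20.9, 19.96 and 22.2 FPKM in treated Jurkat, with no overlap (log2 change 0.45 ± 0.077, adjusted p = 0.000317). In Molt-4 it was at 12.1, 12.7 and 12.3 FPKM untreated and 18.9, 15.6 and 16.7 FPKM treated, again with no overlap (log2 change 0.43 ± 0.077, adjusted p = 0.000392). NCOR1, which activates HDAC3 and recruits it to nuclear receptors and other repressors, fell by a small step. It was at 79.3, 85.9 and 88.2 FPKM in untreated and 74.9, 77.2 and 74.8 FPKM in treated Jurkat (log2 change -0.16 ± 0.054, adjusted p = 0.0276). In Molt-4 it was at 67.8, 62.2 and 61.8 FPKM untreated and 55.5, 56.9 and 55.5 FPKM treated (log2 change -0.19 ± 0.054, adjusted p = 0.0101). The groups did not overlap in either line. The NCOR1 call in Jurkat was lost under quantile normalization (adjusted p = 0.778), when totals were equalised without 7SL RNA (0.321), and on leaving out 1 of 4 libraries, untreated replicates 2 (0.0746) and 3 (0.0653) and treated replicates 1 (0.0754) and 3 (0.0753), over 0.0112 to 0.778, and that in Molt-4 under quantile normalization (0.0777), over 0.00305 to 0.0777. In the annotation TTC19 and PIGL overlap NCOR1 on the opposite strand, with up to 36.6 and 26.1 FPKM in these libraries. Whether the counting used strand is not given in the sources used here, so reads from the shared stretches cannot be told apart.

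SIN3A, the scaffold of the SIN3 complex, changed in opposite directions. It was at 27.8, 26.2 and 28.03 FPKM in untreated and 33.4, 35.96 and 32.7 FPKM in treated Jurkat, a rise of 0.31 ± 0.066 (adjusted p = 0.0018). In Molt-4 it was at 32.1, 34.3 and 30.8 FPKM untreated and 26.2, 29.2 and 27.01 FPKM treated, a log2 change of -0.23 ± 0.066 (adjusted p = 0.00995). No treated library overlapped the untreated libraries of its line. MTA1, a scaffold of the NuRD complex that binds HDAC1 and HDAC2, had the largest change of the 9. It was at 160.1, 161 and 171 FPKM in untreated and 109.5, 96.96 and 91.1 FPKM in treated Jurkat (log2 change -0.72 ± 0.062, adjusted p = 1.24e-06). In Molt-4 it was at 132, 134 and 134 FPKM untreated and 86.9, 92.6 and 88.5 FPKM treated (log2 change -0.57 ± 0.062, adjusted p = 7.52e-06). Each treated MTA1 library of both lines was below every untreated library. MTA2, its paralogue, was at 119, 125 and 116 FPKM in untreated and 114, 111 and 118 FPKM in treated Jurkat, with overlap (log2 change -0.069 ± 0.046, 95% interval -0.17 to 0.031, adjusted p = 0.224). The sign of this small Jurkat change turned under quantile normalization (0.062) and when totals were equalised without 7SL RNA (0.010). In Molt-4 MTA2 was at 122, 129.8 and 123.2 FPKM untreated and 90.9, 89.05 and 90.1 FPKM treated, with no overlap (log2 change -0.47 ± 0.046, adjusted p = 3.22e-06).

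**Figure D2:**
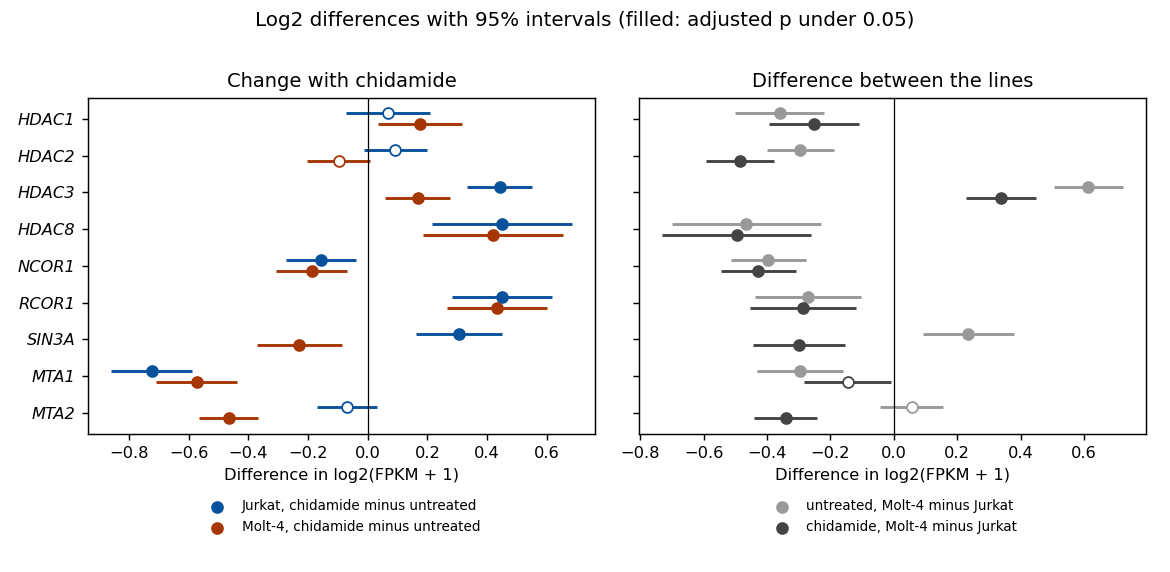
Differences in log2(FPKM + 1) with 95% intervals from the limma fit, for the change with chidamide in each line (left) and for Molt-4 minus Jurkat without and with chidamide (right). Filled points have an adjusted p under 0.05. MTA1 lies furthest to the left among the chidamide changes, at -0.72 ± 0.062 (± SE) in Jurkat, and SIN3A lies on both sides of 0.

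Promoters are shown for 4 of the 5 genes that changed in the same direction in both lines, so that the letters behind 2 rising and 2 falling genes can be set side by side. All 9 genes matched an entry of the RefSeq promoter table of build GRCh38.p14, and the sequences are the 250 bases before the annotated start, 5′ to 3′ on the strand of the gene. The first entry listed for each gene was taken, and any further start of a gene was not searched. RCOR1 lies at chr14:102592399-102592648 on the + strand, HDAC3 at chr5:141636850-141637099 on the - strand, MTA1 at chr14:105419577-105419826 on the + strand and NCOR1 at chr17:16215535-16215784 on the - strand. Capitals mark matches of the motifs searched on both strands.
RCOR1: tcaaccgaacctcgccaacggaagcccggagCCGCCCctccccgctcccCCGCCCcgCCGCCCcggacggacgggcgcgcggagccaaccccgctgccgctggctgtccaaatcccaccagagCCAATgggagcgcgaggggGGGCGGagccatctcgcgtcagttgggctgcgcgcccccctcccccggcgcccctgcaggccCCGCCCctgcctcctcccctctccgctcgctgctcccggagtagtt
HDAC3: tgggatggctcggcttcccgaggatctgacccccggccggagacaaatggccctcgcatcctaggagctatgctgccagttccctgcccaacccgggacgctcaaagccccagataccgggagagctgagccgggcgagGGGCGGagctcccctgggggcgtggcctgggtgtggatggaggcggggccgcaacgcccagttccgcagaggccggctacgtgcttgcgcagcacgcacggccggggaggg
MTA1: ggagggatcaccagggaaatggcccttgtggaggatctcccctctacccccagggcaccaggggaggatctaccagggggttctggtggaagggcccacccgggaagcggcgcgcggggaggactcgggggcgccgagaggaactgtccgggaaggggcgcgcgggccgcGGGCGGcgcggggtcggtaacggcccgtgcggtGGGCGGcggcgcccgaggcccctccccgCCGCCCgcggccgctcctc
NCOR1: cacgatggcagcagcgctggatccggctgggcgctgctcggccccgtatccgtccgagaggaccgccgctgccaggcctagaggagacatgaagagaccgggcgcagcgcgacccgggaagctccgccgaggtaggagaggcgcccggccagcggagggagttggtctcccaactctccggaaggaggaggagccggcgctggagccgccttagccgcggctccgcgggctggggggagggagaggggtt
The motifs searched were the E-box CACGTG bound by MYC and MAX, the GC box GGGCGG, the CCAAT box, the NRF1 motif, the ETS motif CCGGAAGT and the TATA box TATAAA. The GC box was found 5 times in RCOR1, 3 times in MTA1, once in HDAC3 and not in NCOR1, and RCOR1 also holds a CCAAT box. These windows are rich in G and C, at 76.4% in RCOR1, 70.8% in HDAC3, 76.8% in MTA1 and 72.4% in NCOR1, against 48% in the window of HDAC8. Among 35116 RefSeq promoters of this length 42.6% held a GC box and 32% a CCAAT box. For genes tested here, with the first listed promoter of each gene (10270 in all), the shares were 66.7% and 35.1%. The E-box was in none of the windows of the 9 genes, and in 6.34% of all promoters and 8.83% of those of genes tested. In the windows not shown, HDAC1 held 3 GC boxes, a pair of which shares 1 base, and a CCAAT box. SIN3A held a GC box, a CCAAT box and a TATA box, and MTA2 a GC box and the ETS motif. The TATA box was in 10.7% of all promoters and 5.11% of those of genes tested, the ETS motif in 3.42% and 7.04%, and the NRF1 motif, found in none of the 9, in 5.07% and 10.4%. HDAC2 and HDAC8 held no match. A match describes the letters and does not show that a factor binds there.

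The responses of the lines were then compared directly, as the Molt-4 response minus the Jurkat response. Of the 9 genes, 3 differed and all 3 were lower in Molt-4, while 31.9% of all genes tested were called (19.8% higher and 12.1% lower). SIN3A differed most, by -0.53 ± 0.093 (adjusted p = 0.00101). The scaffold gene MTA2, which fell in Molt-4, differed by -0.40 ± 0.065 (adjusted p = 0.000639), and HDAC3, which rose less in Molt-4, by -0.28 ± 0.071 (adjusted p = 0.0109). HDAC2 was near the threshold, at -0.19 ± 0.069 (adjusted p = 0.0535). For HDAC8 and RCOR1, which rose in both lines, no difference was detected: it was -0.030 ± 0.15 for HDAC8 (95% interval -0.36 to 0.30) and -0.017 ± 0.11 for RCOR1 (95% interval -0.25 to 0.22). For MTA1 it was 0.15 ± 0.088 (95% interval -0.042 to 0.34), for NCOR1 -0.032 ± 0.077 (-0.20 to 0.14) and for HDAC1 0.11 ± 0.091 (-0.091 to 0.31). HDAC2 was called lower in Molt-4 under quantile normalization (adjusted p = 0.0089), median-of-ratios scaling (0.0295), equal totals without 7SL RNA (0.00526) and without untreated Molt-4 replicate 1 (0.0207), over 0.00526 to 0.121 across alternatives, and MTA1 was called higher in Molt-4 without treated Jurkat replicate 1 (0.0455), over 0.0455 to 0.609.

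The lines themselves differed in nearly all of these genes. Without chidamide 6 of the 9 were lower in Molt-4 and 2 higher, where 65.3% of all genes tested were called (37.5% lower and 27.9% higher). Under median-of-ratios scaling the all-gene calls turned from 5187 lower and 3857 higher to 4349 lower and 4638 higher. HDAC3 was higher in Molt-4, 77.7 ± 3.77 against 50.4 ± 1.56 FPKM (log2 difference 0.61 ± 0.050, adjusted p = 3.8e-07), while its class I relatives were lower there. HDAC1 was at 236 ± 14.96 FPKM against 303 ± 27.6 (-0.36 ± 0.065, adjusted p = 0.000354). HDAC2 was at 173 ± 10.4 FPKM against 212 ± 2.29 (-0.30 ± 0.049, adjusted p = 0.000188), and HDAC8 at 10.9 ± 0.921 FPKM against 15.5 ± 1.11 (-0.47 ± 0.11, adjusted p = 0.00228). NCOR1, the partner of HDAC3, was lower in Molt-4, with a log2 difference of -0.40 ± 0.054 (adjusted p = 4.01e-05). MTA1 and RCOR1 were lower too, with log2 differences of -0.30 ± 0.062 and -0.27 ± 0.077 (adjusted p = 0.00119 and 0.0081). SIN3A was higher in Molt-4 by 0.23 ± 0.066 (adjusted p = 0.00766), and MTA2 was at 125 ± 4.41 against 120.1 ± 4.31 FPKM (adjusted p = 0.307). The call of RCOR1 was lost under median-of-ratios scaling (adjusted p = 0.0849) and quantile normalization (0.153), over 0.00285 to 0.153, and that of SIN3A with equal totals without 7SL RNA (0.0633), over 0.000736 to 0.0633, while MTA2 was called higher under median-of-ratios scaling (0.00998), over 0.00998 to 0.895.

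With chidamide 7 of the 9 were lower in Molt-4 and 1, HDAC3, was higher, where 69.2% of all genes tested were called (37.5% lower and 31.7% higher), a split that median-of-ratios scaling turned from 5189 lower and 4387 higher to 4503 and 4969. HDAC3 was at 87.3 ± 2.38 FPKM in Molt-4 against 68.8 ± 1.26 in Jurkat (log2 difference 0.34 ± 0.050, adjusted p = 6.91e-05). SIN3A had changed sides: it was at 27.5 ± 1.58 FPKM in Molt-4 against 34.04 ± 1.695 in Jurkat (log2 difference -0.30 ± 0.066, adjusted p = 0.0015). HDAC2 was at 161 ± 5.13 against 226 ± 4.51 FPKM (-0.49 ± 0.049, adjusted p = 2.34e-06), and MTA2 at 90.03 ± 0.943 against 114 ± 3.29 FPKM (-0.34 ± 0.046, adjusted p = 3.17e-05). HDAC1 (-0.25 ± 0.065), HDAC8 (-0.50 ± 0.11), NCOR1 (-0.43 ± 0.054) and RCOR1 (-0.29 ± 0.077) were lower in Molt-4 as without the drug, with adjusted p between 1.91e-05 and 0.0052. MTA1 was at 89.3 ± 2.95 FPKM in Molt-4 and 99.2 ± 9.37 FPKM in Jurkat, a log2 difference of -0.15 ± 0.062 that missed the threshold (95% interval -0.28 to -0.0098, adjusted p = 0.054). It was called under quantile normalization (0.0135), when totals were equalised without 7SL RNA (0.00205), and without treated Jurkat replicate 3 (0.013) or untreated Jurkat replicate 3 (0.0411), over 0.00205 to 0.421.

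Genes of a family were set against each other as shares of their summed FPKM, which a scaling factor of a library does not change. In the class I family only HDAC1 and HDAC2 work in the same complexes, as given above. The shares of HDAC3 and HDAC8 therefore describe the make-up of the class I RNA and not places in a complex. Shares were compared by exact two-sided permutation tests over the 12 libraries, with labels exchanged within each line for the treatment and within each treatment for the line, 400 arrangements each and a smallest possible p of 0.005, adjusted over 18 tests. HDAC1 was the largest part of the class I RNA in every group, 52.1% ± 1.87 in untreated and 50.01% ± 0.734 in treated Jurkat, 47.4% ± 0.798 in untreated and 50.2% ± 0.115 in treated Molt-4 (for the treatment exact p = 0.7, adjusted p = 0.741, with differences of -2.09 points in Jurkat and 2.83 in Molt-4). The test uses the mean difference of both lines, so opposite differences cancel and neither line is tested alone. HDAC1 shares of treated and untreated libraries overlapped in Jurkat and did not in Molt-4. HDAC3 took 8.68% ± 0.262 in untreated and 10.9% ± 0.228 in treated Jurkat, and 15.7% ± 1.34 and 16.5% ± 0.335 in Molt-4. Its share was 1.51 points higher with chidamide over both lines together (exact p = 0.02, adjusted p = 0.036), with overlapping libraries in Molt-4. Between lines it was 6.305 points higher in Molt-4 (exact p = 0.005, adjusted p = 0.018). The HDAC2 share was lower with chidamide over both lines together (mean difference -2.56 points, exact p = 0.02, adjusted p = 0.036). In Jurkat it went from 36.5% ± 1.61 to 35.7% ± 0.868, by -0.83 points and with overlapping libraries. In Molt-4 it went from 34.8% ± 0.716 to 30.5% ± 0.814, by -4.3 points and with no overlap. The HDAC8 share was small and rose, from 2.66% ± 0.142 to 3.398% ± 0.287 in Jurkat and from 2.199% ± 0.165 to 2.84% ± 0.397 in Molt-4 (exact p = 0.005, adjusted p = 0.018). The HDAC8 treatment call was lost under quantile normalization (adjusted p = 0.105). As Molt-4 minus Jurkat, the share differed by -3.52 points for HDAC2 (exact p = 0.015, adjusted p = 0.034). For HDAC8 it differed by -0.51 points (exact p = 0.01, adjusted p = 0.0257), a call lost under quantile normalization (0.152). The line difference of -2.27 points for HDAC1 was not called (exact p = 0.06, adjusted p = 0.09). The summed class I FPKM was 581 ± 31.9 in untreated and 633 ± 3.15 in treated Jurkat, and 497 ± 23.1 and 529 ± 11.51 in Molt-4.

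Among the CoREST scaffolds RCOR1 rose in level, but its share was lower with chidamide over both lines together (mean difference -3.64 points, exact p = 0.01, adjusted p = 0.0257). In Jurkat the RCOR1 share went from 37.05% ± 2.85 to 31.9% ± 0.518 with no overlap. In Molt-4 the RCOR1 share went from 35.6% ± 1.69 to 33.5% ± 1.599 with overlapping libraries. Its paralogue RCOR2 went from 14.98% ± 1.53 to 35.4% ± 1.28 of the family in Jurkat and from 6.42% ± 1.19 to 24.3% ± 1.61 in Molt-4, while RCOR3 went from 47.97% ± 1.33 to 32.6% ± 0.7705 and from 57.9% ± 1.08 to 42.2% ± 1.53. The summed FPKM of the family was 40.9 ± 2.52 in untreated and 65.8 ± 4.13 in treated Jurkat, and 34.7 ± 1.64 and 50.9 ± 2.78 in Molt-4. The RCOR1 share did not differ detectably between lines (exact p = 0.955, adjusted p = 0.955). The MTA1 share of the MTA family fell from 53.2% ± 1.47 to 43.3% ± 2.93 in Jurkat and from 46.6% ± 0.512 to 43.01% ± 1.33 in Molt-4 (exact p = 0.005, adjusted p = 0.018). Between lines the MTA1 share was not called (-3.45 points as Molt-4 minus Jurkat, exact p = 0.045, adjusted p = 0.0736). MTA2 took 38.97% ± 1.56 in untreated and 50.05% ± 1.91 in treated Jurkat, and 43.7% ± 0.695 and 43.4% ± 0.686 in Molt-4 (exact p = 0.07, adjusted p = 0.0969 for both lines together). The MTA2 difference was 11.08 points with no overlap in Jurkat and -0.29 points with overlapping libraries in Molt-4. Its share was not called between lines (exact p = 0.615, adjusted p = 0.692). MTA3 went from 9.7% ± 0.214 to 13.6% ± 1.02 in Molt-4 and was at 7.803% ± 0.453 and 6.63% ± 1.05 in Jurkat. The summed FPKM of the 3 MTA genes was 308 ± 5.82 untreated and 229 ± 8.06 treated in Jurkat, and 286 ± 5.91 and 208 ± 2.14 in Molt-4, with no overlap in either line.

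SIN3A held 41.5% ± 2.84 of SIN3A plus SIN3B in untreated and 45.5% ± 1.07 in treated Jurkat, and 51.6% ± 1.88 and 49.2% ± 0.404 in Molt-4. Its share was 6.87 points higher in Molt-4 (exact p = 0.005, adjusted p = 0.018), and with chidamide it went by 4.0 points in Jurkat and -2.34 in Molt-4 (exact p = 0.54, adjusted p = 0.684 for both lines together). Many of the share calls rest on all 12 libraries. The treatment calls of HDAC2, HDAC3 and RCOR1 were lost with 7, 9 and 5 of the 12 libraries left out in turn. The line call of HDAC8 was lost without treated Jurkat replicate 1 or 3 or untreated Jurkat replicate 1. That of HDAC2 was lost without untreated Jurkat replicate 3. The line difference of HDAC1 was called without treated Jurkat replicate 1 (adjusted p = 0.045), and that of MTA1 without treated Jurkat replicate 3 (0.0386). Leaving 1 out also leaves fewer arrangements, and the part of this in the lost calls was not tested.

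**Figure D3:**
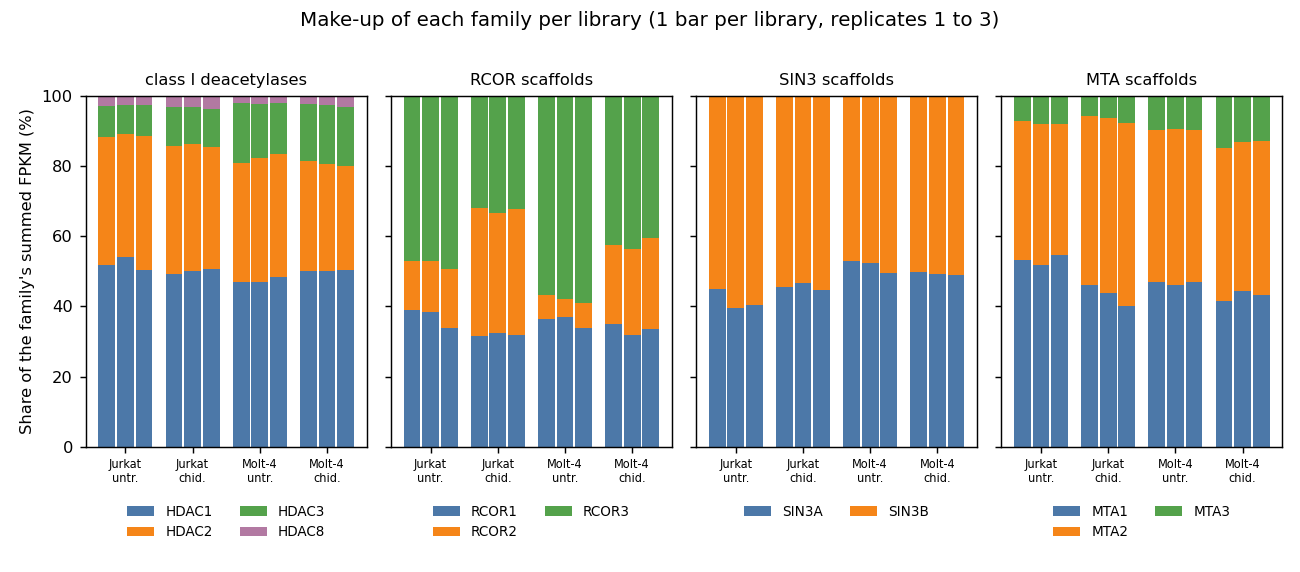
Share in percent of each gene in the summed FPKM of its family, 1 bar per library, for the class I deacetylases and the RCOR, SIN3 and MTA families. RCOR2 takes a larger part in every treated library of both lines, and HDAC3 takes 8.68% ± 0.262 in untreated Jurkat against 15.7% ± 1.34 in untreated Molt-4.

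The other subunits of the same complexes were followed to see whether the 9 genes moved with their partners. Of 45 other subunits, 44 were tested, and CHD5 was below the filter. In Jurkat 14 of the 44 rose and 11 fell, with a median log2 change of 0.066, so that 56.8% were called beside 56.3% of all genes. In Molt-4 5 rose and 13 fell, with a median of -0.022, so that 40.9% were called beside 60% of all genes. The counts by complex below are to be read against the same all-gene shares, 30.9% higher and 25.4% lower in Jurkat and 35.4% higher and 24.6% lower in Molt-4. Of the 8 NuRD genes in this list 5 fell and 1 rose in Jurkat (75% called), and 4 fell in Molt-4 (50% called). CDK2AP1, a small NuRD subunit, fell from 82.9 ± 14.3 to 37.3 ± 4.34 FPKM in Jurkat (log2 change -1.12 ± 0.12) and from 62.1 ± 2.61 to 31.1 ± 2.37 in Molt-4 (-0.98 ± 0.12). CHD3, a remodelling ATPase, fell from 168 ± 5.56 to 66.9 ± 2.49 FPKM in Jurkat (-1.31 ± 0.048), while its paralogue CHD4 rose from 164 ± 3.87 to 264 ± 30.3 (0.68 ± 0.080). In Molt-4 CHD3 also fell (-0.23 ± 0.048), and CHD4 was at 0.17 ± 0.080 (adjusted p = 0.0923). MBD3 fell in both lines (-0.53 ± 0.067 in Jurkat and -0.73 ± 0.067 in Molt-4), as did GATAD2A (-0.47 ± 0.10 and -0.48 ± 0.10). MTA3 fell in Jurkat (-0.64 ± 0.097) and was at 0.026 ± 0.097 in Molt-4 (adjusted p = 0.837). Adjusted p for the NuRD genes that rose or fell lay between 1.07e-09 and 0.00207.

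CoREST genes moved both ways, 4 of 9 higher and 2 lower in Jurkat (66.7% called beside 56.3% of all genes) and 3 higher and 4 lower in Molt-4 (77.8% beside 60%). RCOR2 had the largest rise of the list in both lines, from 5.41, 5.71 and 7.31 to 24.2, 20.9 and 24.9 FPKM in Jurkat (log2 change 1.77 ± 0.13, adjusted p = 2.51e-07) and from 2.29, 1.74 and 2.66 to 12.2, 12.02 and 12.8 FPKM in Molt-4 (2.06 ± 0.13, adjusted p = 5.1e-08). KDM1A, the demethylase that RCOR1 binds, was at 108 ± 6.53 and 101 ± 1.53 FPKM in Jurkat (adjusted p = 0.106) and fell from 98.3 ± 3.49 to 82.1 ± 1.65 FPKM in Molt-4 (adjusted p = 0.00103). HMG20B rose in Jurkat (0.68 ± 0.066, adjusted p = 3.03e-06) and was at 0.16 ± 0.066 in Molt-4 (adjusted p = 0.0511). PHF21A rose in Jurkat (0.44 ± 0.097, adjusted p = 0.00205) and in Molt-4 (0.85 ± 0.097, adjusted p = 1.15e-05). Beside SIN3A, 4 of 15 other SIN3 genes rose and 2 fell in Jurkat (40% called beside 56.3% of all genes), and 3 fell in Molt-4 (20% beside 60%). SAP18 fell most of these in Molt-4 (-0.45 ± 0.085, adjusted p = 0.000666). It fell in Jurkat too (-0.22 ± 0.085, adjusted p = 0.0449), a call near the threshold that was not followed under the alternatives. SIN3B was called in neither line (adjusted p = 0.427 and 0.301). RBBP4, a histone-binding subunit of both SIN3 and NuRD, fell in Jurkat and Molt-4 (-0.33 ± 0.044 and -0.37 ± 0.044). KDM1A, SIN3B and RBBP4 were singled out after their values were seen.

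Among the partners of HDAC3 and NCOR1, the subunit TBL1X rose in Jurkat (0.76 ± 0.19, adjusted p = 0.00385, lost at 0.0528 within the groups compared alone) and was at 0.16 ± 0.19 in Molt-4 (adjusted p = 0.466). GPS2, another NCOR subunit, rose in Jurkat from 76.01 ± 7.69 to 118 ± 4.52 FPKM (0.63 ± 0.071, adjusted p = 1.17e-05). In Molt-4 GPS2 was at 0.12 ± 0.071 (adjusted p = 0.179). The GPS2 responses were added after their values were seen and were not followed under the alternatives. In the MiDAC and MIER group, which also carries HDAC1 or HDAC2, TRERF1 rose in Jurkat (0.31 ± 0.10, adjusted p = 0.0228) and in Molt-4 (1.34 ± 0.10, adjusted p = 4.11e-07). ELMSAN1 fell in Jurkat (-0.62 ± 0.095, adjusted p = 0.000151) and was at 0.16 ± 0.095 in Molt-4 (adjusted p = 0.169). MIER3 rose in Molt-4 with overlapping groups (0.35 ± 0.12, adjusted p = 0.0226; 0.12 ± 0.12 in Jurkat, adjusted p = 0.422), a Molt-4 call lost under quantile normalization (0.138), within the groups compared alone (0.0572), and without treated Molt-4 replicate 1 (0.105) or untreated Molt-4 replicate 1 (0.0695) or 3 (0.0821). Between untreated lines 19 of the 44 were lower and 6 higher in Molt-4 (56.8% called beside 65.3% of all genes, of which 37.5% lower and 27.9% higher), with 11 higher under median-of-ratios scaling. CHD3, TRERF1, RCOR2 and PHF21A were lower there by the largest log2 differences (-1.79 ± 0.048, -1.23 ± 0.10, -1.15 ± 0.13 and -0.93 ± 0.097), and TBL1X, MIER2 and CHD4 were higher (0.58 ± 0.19, 0.39 ± 0.086 and 0.27 ± 0.080). The TBL1X difference was not called within the groups compared alone (0.0697) or without untreated Jurkat replicate 1 (0.0679) or 2 (0.0578). Between treated lines 24 were lower and 6 higher in Molt-4 (68.2% called beside 69.2% of all genes), with 3 higher under equal totals without 7SL RNA. Among the largest of these differences were those of GPS2, SAP18, ZMYM2 and RCOR2 (-1.02 ± 0.071, -0.93 ± 0.085, -0.91 ± 0.074 and -0.86 ± 0.13) and, on the higher side, of MTA3, MIER2 and ELMSAN1 (0.87 ± 0.097, 0.54 ± 0.086 and 0.31 ± 0.095, the last not called with equal totals without 7SL RNA at 0.0942).

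**Figure D4:**
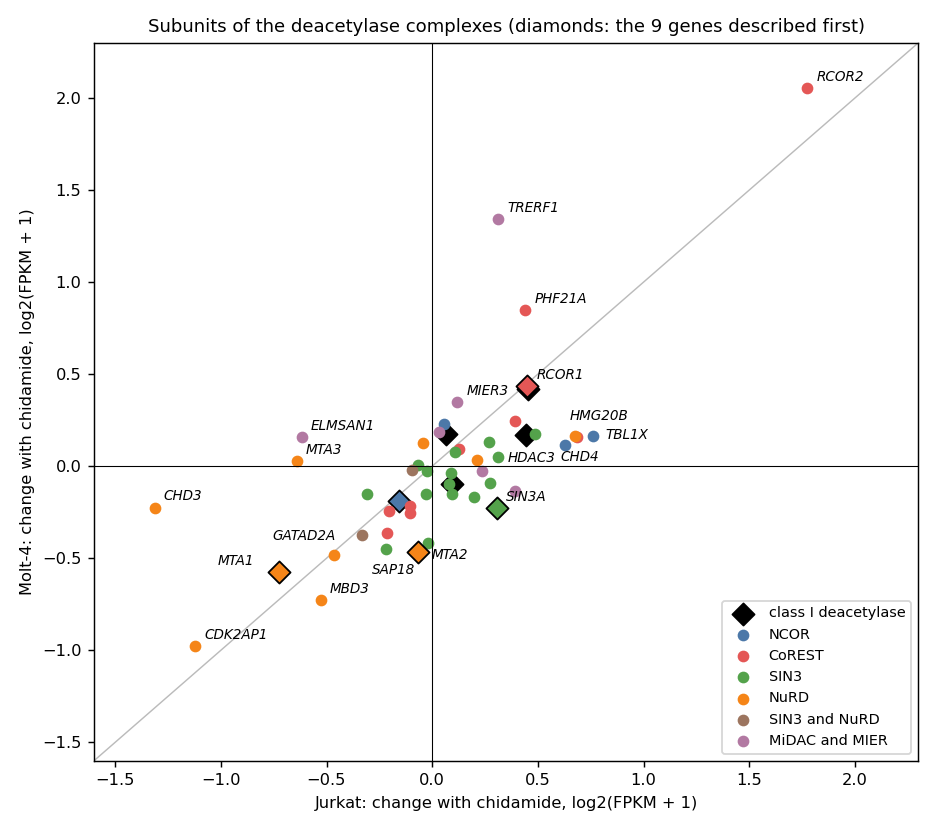
Change with chidamide in Jurkat (horizontal axis) and Molt-4 (vertical axis) as differences in log2(FPKM + 1), for the 9 genes (diamonds) and other subunits (circles), coloured by complex, with the line of equal change. RCOR2 lies at the upper right, CDK2AP1, MTA1 and MBD3 at the lower left, and SIN3A to the right of 0 and below it.

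To show which genes had the most similar pattern to each deacetylase and scaffold, Pearson's r was taken over the 12 libraries on the log2(FPKM + 1) scale. With 4 groups these values mostly reflect the group means, and they are given as a description. The closest were ARF3 for HDAC1 (r = 0.981, then FAM96B and DGUOK), NAA38 for HDAC2 (0.983, then ZC3H13 and TSHZ1), YWHAZ for HDAC3 (0.991, then DHRS2 and MMP17) and FGD6 for HDAC8 (0.973, then UBE2Q1 and SYCE3). For the scaffolds they were ZMYM2 for NCOR1 (0.989, then CERS5 and CTDNEP1), ECE1 for RCOR1 (0.981, then OAZ2 and GPSM2), ZFP91 for MTA1 (0.990, then TOR1A and IKZF1) and CDK11B for MTA2 (0.962, then RCAN1 and INO80). ZMYM2 is a CoREST-associated zinc finger gene from the list of subunits, and IKZF1 (0.986) encodes the Ikaros factor of lymphoid cells. For SIN3A the first was CDCA8 (0.906), then CXorf40B and BSN. Among the 9 genes HDAC8 and RCOR1 were most alike (r = 0.890), and HDAC3 and NCOR1, which work in 1 complex, had the lowest value (-0.916).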

How the data were processed

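RNA of Jurkat and Molt-4 cells was sequenced from TruSeq RNA libraries, 12 in all, in 4 groups of 3. The authors deposited 1 table of FPKM values for 25146 genes. The submitters' processing notes name STAR, HTSeq, DESeq2 and build hg19, without versions or roles, and how FPKM was derived is not given in the sources used here. FPKM steps could not be turned back into whole reads (36.6% of low values lay within 0.15 of a whole multiple, against 30% by chance), so no count test was run and depth is unknown.

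Values were analysed as log2(FPKM + 1), computed here from the deposited FPKM, for the 13840 genes that reached an FPKM of 1 in 3 or more libraries. One mean per group was fitted over all 12 libraries with limma 3.58.1 in R 4.3.3 (empirical Bayes with a trend), and p-values were adjusted by Benjamini-Hochberg over all genes and called under 0.05. The model code was tested on simulated data. Shares of paralogues were compared by exact permutation tests over libraries. The 9 genes, the subunit lists and the tests were chosen with earlier results of these data known. All 9 genes are named in every comparison of levels. Of the other subunits up to 4 called with the largest rise and up to 4 with the largest fall are named in each, with the 3 genes most correlated with each of the 9, CDKN1A and HDAC10. The results of 1 subunit, and the shares that need it, are not reported here, though the 18 share tests include them. Alternatives were a pseudocount of 0.1, no filter, an FPKM of at least 5, median-of-ratios scaling, quantile normalization, equal totals without 7SL RNA, a fit of the compared groups alone, a robust empirical Bayes step, a block for the replicate number, and each library left out in turn. Single genes were followed under the alternatives for the 9 genes, and for other subunits only in the comparisons where the rule above names them. Further subunit calls, such as those of SAP18, TRERF1 and PHF21A in Jurkat, and those of HDAC10 were not followed. Promoter sequences came from RefSeq tables of GRCh38.p14, and no coordinates of the hg19 table were used.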

Additional observations from a re-analysis of the deposited data

Results flagged for a closer look

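The chidamide responses of the lines differed, by a limma test of the difference itself, for 3 of the 9 genes and for 10 of the 44 other subunits (22.7%), where 31.9% of all genes tested were called. As Molt-4 minus Jurkat on the log2 scale, the difference was -0.53 for SIN3A, -0.40 for MTA2 and -0.28 for HDAC3. Among the other subunits the response was higher in Molt-4 for CHD3 (1.09), TRERF1 (1.03), ELMSAN1 (0.78) and MTA3 (0.67), and by a smaller step for PHF21A (0.41 ± 0.14). It was lower in Molt-4 for MIER1 (-0.53), HMG20B (-0.52), GPS2 (-0.51) and CHD4 (-0.51), and by a smaller step for SUDS3 (-0.26 ± 0.083). PHF21A and SUDS3 fall outside the rule for named genes and were added after their values were seen. Adjusted p lay between 3.46e-07 for CHD3 and 0.0395 for PHF21A.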

How the results depend on the processing

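Of 33 called results of the 9 genes, 27 kept their direction and call in every setting run and with each of the 12 libraries left out, and the other 6 lost the call in 17 of their fits, as given in the report. There were 9 settings, except for the response differences, for which a fit of the compared groups alone is the fit of all groups and was not run separately. The calls of HDAC8, RCOR1 and MTA1 in both lines, of SIN3A in both lines and of MTA2 in Molt-4 were kept throughout. Of 12 results not called, 7 were called in at least 1 fit. The MTA2 change in Jurkat turned to 0.062 under quantile normalization and to 0.010 when totals were equalised without 7SL RNA, which also turned the MTA2 difference between untreated lines to -0.0080. With 1 library left out the response difference ranged from -0.14 to 0.047 for HDAC8, from -0.063 to 0.013 for NCOR1 and from -0.090 to 0.042 for RCOR1. Genes called lower in Jurkat numbered 1 instead of 2 under quantile normalization and also with totals equalised without 7SL RNA. Under these settings genes called higher in Jurkat numbered 6 instead of 4, with HDAC1 and HDAC2 added. Genes called higher in Molt-4 numbered 2 instead of 4 under median-of-ratios scaling. Over all alternatives 3 to 5 genes were called lower in Molt-4 and 3 to 4 had a lower response there. Between lines 5 to 6 were lower in untreated and 7 to 8 in treated Molt-4. Shifts of the subunit counts that were smaller in proportion are not listed. Genes higher in untreated Molt-4 numbered 1 instead of 2 with equal totals without 7SL RNA. For the other subunits, those with a lower response in Molt-4 numbered 9 with equal totals without 7SL RNA and 13 under quantile normalization instead of 5, those higher in treated Molt-4 3 instead of 6 with equal totals, and those higher in untreated Molt-4 11 instead of 6 under median-of-ratios scaling. The HDAC8 share differed by 0.37 points with chidamide and -0.31 between lines under quantile normalization, neither called. The cause was not tested. With 1 library left out the counts ranged from 1 to 2 (lower in Jurkat), 2 to 4 (higher in Molt-4), 0 to 1 (higher response in Molt-4) and 3 to 8 (other subunits higher in Molt-4). Share differences in points then ranged from -2.69 to -1.77 (HDAC1, line), -0.049 to 0.87 (HDAC1, chidamide), -3.93 to -3.12 (HDAC2, line), -2.97 to -2.16 (HDAC2, chidamide), 1.21 to 1.87 (HDAC3, chidamide), -0.62 to -0.43 (HDAC8, line), -4.22 to -2.76 (MTA1, line), -0.74 to 0.56 (RCOR1, line) and -4.47 to -3.19 (RCOR1, chidamide). Over all genes the response difference had 2745 higher and 1671 lower calls, against 2271 and 2678 under quantile normalization and 2254 and 2180 with equal totals without 7SL RNA, and the median of all genes moved from 0.076 to -0.097 (Molt-4, quantile), from 0.036 to -0.068 (response difference, quantile) and from -0.066 to -0.20 (treated lines, without 7SL RNA). With the replicate number as a block 4207 genes were higher and 3473 lower in Jurkat and 4844 and 3353 in Molt-4, and no call of the 9 genes changed. Same-numbered libraries did not deviate together (correlations -0.038 to -0.0096 in Jurkat and -0.013 to 0.041 in Molt-4), and the best partner was the own number for 0 of 3 libraries in Jurkat and 1 of 3 in Molt-4. Without counts, the precision of low values cannot be stated.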
